A study of Mus musculus with 63 samples.

Results

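The comparison set the hearts of Mfn2AA mice against those of nontransgenic (ntg) mice at 5 weeks of age, with 4 RNA-seq libraries in each group, 8 of the 63 libraries of the series. The libraries were chosen by genotype, age and library batch: all 8 were made in the 5-week batch, and ntg hearts prepared again with the P1 (postnatal day 1) libraries were left out. Mfn2AA hearts overexpressed human mitofusin 2 carrying the substitutions T111A and S442A, ntg hearts carried no transgene, and all mice were on the FVB/N background. Used beside them were 3 hearts of the tet-off control line and 4 hearts overexpressing human Mfn2 without these substitutions (Mfn2wt), of the same age and batch, and 6 Mfn2AA and 6 ntg hearts at P21 (postnatal day 21), made in another batch. The transgene level is also given for 6 Mfn2wt hearts at P21. The promoter of the transgene, the number of founder lines, the sex of the mice and whether Mfn2AA hearts also carried the tet-off driver are not given in the sources used here, so the comparison includes any effect of a driver line. The tissue is labelled left ventricle, while the extraction protocol speaks of ventricular apexes. Nothing in the labels says how the animals of a group were related, and the p-values measure the spread between these libraries. The library titles carry a number before the dash whose meaning is not given. 5wk_Mfn2AA_10289-7, 5wk_Mfn2AA_10289-8 and 5wk_Mfn2AA_10289-9 share it with the tet-off hearts, whereas it differs between all ntg hearts. The number is thus largely split by genotype, and whether these Mfn2AA hearts are independent of each other cannot be told.

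Mitofusin 2 is a GTPase of the outer mitochondrial membrane that tethers and fuses mitochondria. When a mitochondrion is damaged, the kinase PINK1 accumulates on its surface and phosphorylates mitofusin 2, which then binds the ubiquitin ligase Parkin and marks the organelle for mitophagy, its removal through autophagy. In Mfn2AA the residues PINK1 phosphorylates are replaced by alanine, so that fusion is kept and Parkin recruitment is not. Around birth the mouse heart exchanges fetal mitochondria, which use carbohydrate, for adult mitochondria, which burn fatty acids, and the title of the series places Parkin-mediated mitophagy in this exchange.

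The transgene was read in the deposited FPKM values, in which it has a row of its own. The 4 Mfn2AA hearts had 336, 613, 851 and 360 FPKM and the ntg hearts 4.65, 4.50, 20.0 and 5.85 FPKM. The groups did not overlap (540 ± 242 against 8.76 ± 7.54 FPKM, SD, n = 4 each; exact two-sided permutation test on log2(FPKM + 1), p = 0.0286, the smallest that 4 against 4 allows). Mfn2wt hearts stood at 1469 ± 215 FPKM (n = 4) and tet-off hearts at 72.6 ± 102 (n = 3), of which 1 heart had 190. The order of the groups was thus Mfn2wt, Mfn2AA, tet-off, ntg, and the tet-off and ntg ranges overlapped. At P21, in libraries of another batch, the order of the transgenic lines was reversed. Mfn2AA hearts held 5319 ± 2059 FPKM (SD, n = 6) and Mfn2wt hearts 1588 ± 143 (n = 6). The Mfn2wt means were thus close at the 2 ages, while the Mfn2AA mean was far lower at 5 weeks. Its part in the differences between the ages was not tested.

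The 8 libraries held 8042651 to 23732780 gene counts. Below, levels are normalised CPM, a gene's share of the library's counts times 1000000 after TMM scaling, which are compared within a gene and not between genes, since they are not divided by length. Library values follow 1 order, 5wk_Mfn2AA_10287-8, 5wk_Mfn2AA_10289-7, 5wk_Mfn2AA_10289-8 and 5wk_Mfn2AA_10289-9, then 5wk_ntg_10287-6, 5wk_ntg_15927-6, 5wk_ntg_15928-7 and 5wk_ntg_15935-10, numbers that come from the library titles. Xist, which is transcribed from the inactive X of females, was at 138 and 176 CPM in 5wk_Mfn2AA_10289-7 and 5wk_Mfn2AA_10289-8 and at 84.4 in 5wk_ntg_15935-10, and at 1.20 to 7.12 in the other 5, so both groups mix libraries with and without it; its part in the results was not tested. Of 13660 genes tested by edgeR's quasi-likelihood test, 5451 (39.9%) differed between Mfn2AA and ntg at a Benjamini-Hochberg adjusted p under 0.05 and are called below, 2919 of them higher (21.4%) and 2532 lower (18.5%) in Mfn2AA. A change of at least 2-fold was found in 1593 of the genes called higher and 878 of those called lower, and the median log2 fold change over all tested genes was 0.01. The 4 and 4 library values did not overlap for 4722 genes (34.6%). Scaling by total counts moved the median of all genes to 0.30 and the share of called genes that were higher from 53.5% to 79.2% (3795 higher, 995 lower), and the FPKM values, as log2(FPKM + 1), moved them to 0.24 and 78.3% (4075 higher, 1127 lower).

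Against the same ntg hearts, the tet-off line differed in 16 genes (0.117%) and the Mfn2wt hearts in 53 (0.388%). Mfn2AA hearts differed from tet-off hearts in 4782 genes (35%) and from Mfn2wt hearts in 5255 (38.5%). These comparisons share control or Mfn2AA libraries and are given side by side below. Their numbers of calls rest on unequal libraries, and the tet-off group held 3 hearts. Of the Mfn2wt libraries, 5wk_Mfn2wt_15926-4 held 7396727 counts, 34.4% of them in the gene Rn45s, and 5wk_Mfn2wt_15931-9 held 7590577, with 17.6%. In the Mfn2AA and ntg libraries Rn45s took 3.57% to 8.72%. Calls without single libraries are given in the closing sections. At P21, 914 of 13584 genes (6.73%) differed between Mfn2AA and ntg. The numbers of calls at the 2 ages rest on different numbers of libraries, and the change of the difference between ages was tested by itself and is given near the end.

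**Figure D1:**
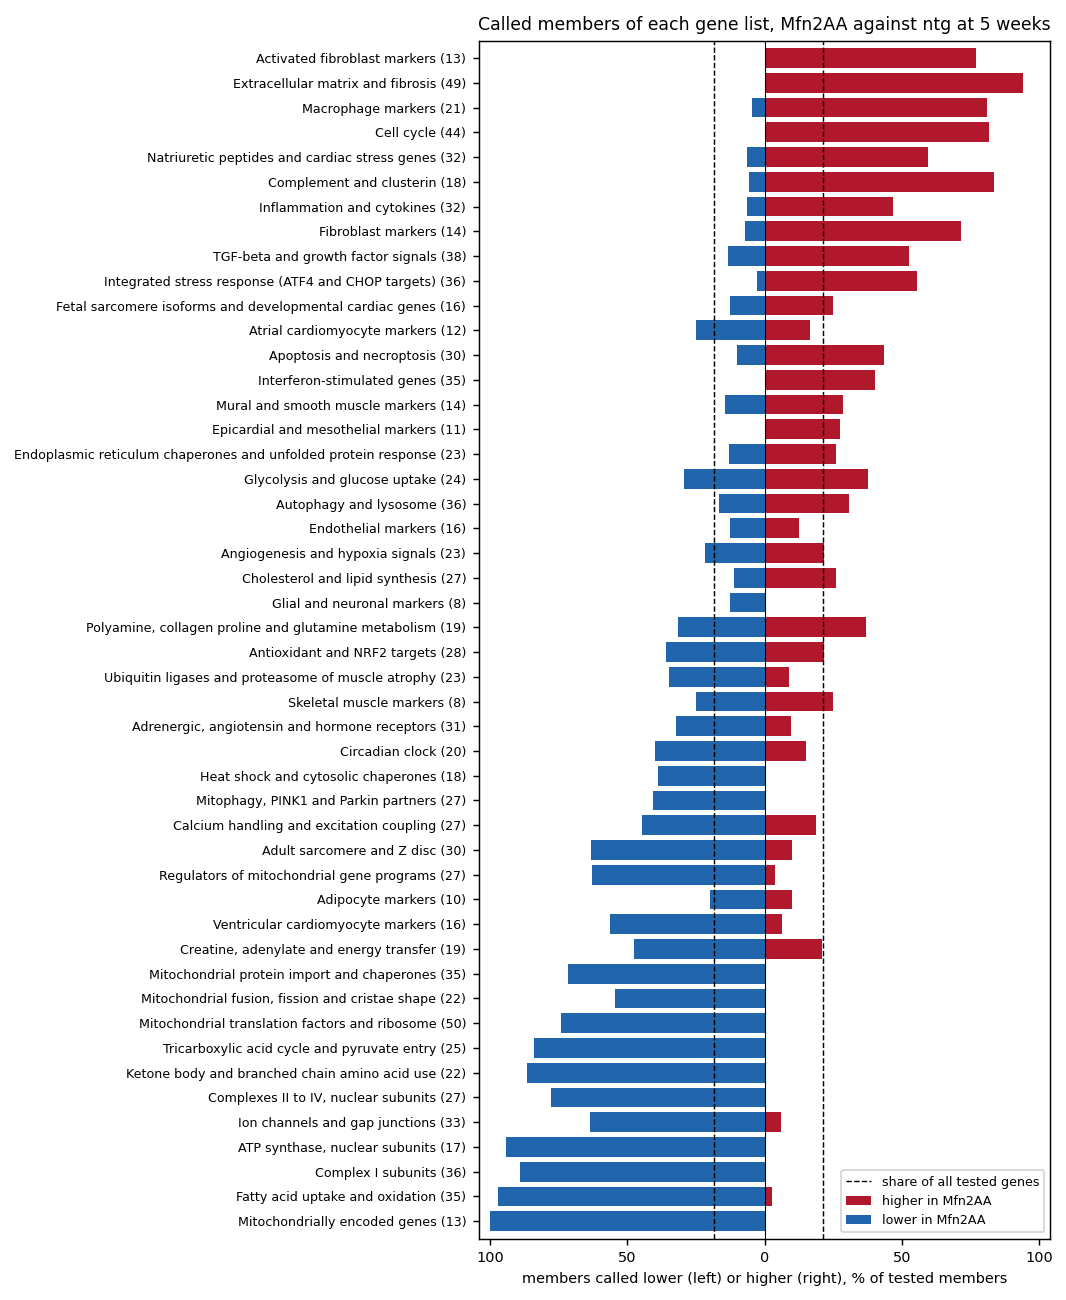
Each bar gives the percentage of tested members of a gene list (number in brackets) called lower (left, blue) or higher (right, red) in Mfn2AA against ntg hearts at 5 weeks, and the dashed lines give the shares over all tested genes, 18.5% lower and 21.4% higher. Lists are ordered by their median log2 fold change; the bars of mitochondrial lists lie on the left and those of extracellular matrix, cell cycle and macrophage lists on the right, while the balance of the mitophagy, antioxidant and receptor lists turns under log2(FPKM + 1).

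The first question was what happened to the mitophagy genes themselves. Of 27 tested partners of PINK1 and Parkin, 11 were lower, none higher and 16 not called (median log2 fold change -0.38), but with log2(FPKM + 1) 7 were higher and 5 lower, so the direction of this list rests on the scaling. Mouse Mfn2 (chr4:147873595-147904819, mm10) had 628, 826, 722 and 715 CPM in Mfn2AA and 1141, 1184, 1116 and 1125 in ntg hearts. Every Mfn2AA heart was below every ntg heart, a log2 fold change of -0.66 ± 0.11 (SE; adjusted p = 0.000176), which was -0.37 and not called under total count scaling (adjusted p = 0.121). Whether reads of the human transcript reached the mouse gene was not tested; in Mfn2wt hearts, with more transgene, the difference from ntg was 0.08. Pink1 (chr4:138313410-138326296), the kinase, had 337, 331, 242 and 216 CPM in Mfn2AA and 604, 661, 697 and 1019 in ntg hearts. It fell 2.65-fold without overlap (-1.40 ± 0.21, adjusted p = 8.55e-05), and stood at 0.11 in tet-off and -0.10 in Mfn2wt hearts against ntg. Park2, which encodes Parkin (chr17:10840384-12063360), stayed near its ntg level, with 3.04 to 4.25 against 3.52 to 5.54 CPM and overlapping groups (-0.29 ± 0.19, adjusted p = 0.241). Its estimate changed sign under both the FPKM values and total count scaling. Rhot2, a Miro GTPase that ties mitochondria to microtubule motors and is a Parkin substrate, fell 2.30-fold (adjusted p = 4.6e-05); its exons overlap Wdr90, and unstranded reads of the pair cannot be told apart. Calcoco1, a relative of known autophagy receptors, fell 1.90-fold (adjusted p = 0.000861). Sqstm1, the autophagy adaptor p62, had 383 to 654 CPM against 370.4 to 449 (0.26 ± 0.14, adjusted p = 0.151), and was called higher under total count scaling (0.56) and log2(FPKM + 1) (0.53), and without 5wk_Mfn2AA_10289-8 (0.37).

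Genes that shape mitochondria moved one way. Of 22 tested genes of fusion, fission and cristae, 12 fell and none rose (median -0.73); 5 fell and none rose with log2(FPKM + 1), and likewise with total count scaling. Mtfp1, a fission factor of the inner membrane, had 35.7, 56.4, 59.5 and 30.1 CPM against 125, 143, 133 and 145. The groups were far apart, with a 3.00-fold lower level in Mfn2AA (-1.58 ± 0.18, adjusted p = 9.98e-06). Oma1, the stress-activated protease that cleaves the fusion factor Opa1, fell 1.88-fold, and Chchd3, a subunit of the MICOS complex at cristae junctions, fell 2.05-fold; the Chchd3 call was lost with log2(FPKM + 1) (adjusted p = 0.0519). Mfn1, the paralog of mitofusin 2, had 42.7, 79.4, 102 and 78.1 CPM against 162, 176, 165 and 71.6. Here 5wk_ntg_15935-10 lay among the Mfn2AA hearts, and the call (-0.93 ± 0.33, adjusted p = 0.0329) was lost without 5wk_Mfn2AA_10287-8, 5wk_Mfn2AA_10289-7 or 5wk_Mfn2AA_10289-9, or without 5wk_ntg_10287-6, 5wk_ntg_15927-6 or 5wk_ntg_15928-7, with adjusted p from 0.0579 to 0.0942. It was also lost with log2(FPKM + 1) (-0.59, adjusted p = 0.28) and total count scaling (-0.63, adjusted p = 0.225). Vdac1, the pore of the outer membrane, had the same spread, with 196 to 412 against 331 to 743 CPM (-0.87 ± 0.28, adjusted p = 0.0218), and lost its call without 5wk_Mfn2AA_10287-8 or 5wk_Mfn2AA_10289-7, or 5wk_ntg_10287-6 or 5wk_ntg_15927-6 (adjusted p 0.0506 to 0.0799), and with log2(FPKM + 1) (-0.56, adjusted p = 0.263) and total count scaling (-0.56, adjusted p = 0.229).

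The respiratory chain is built from 13 proteins encoded in mitochondrial DNA and many more encoded in the nucleus. All 13 mitochondrially encoded genes were lower in Mfn2AA hearts, without overlap between groups (median -1.85). Their summed level was 14001 to 35956 CPM in Mfn2AA and 66608 to 87549 in ntg hearts. As a share of all counts they took 2.64% ± 1.01 against 7.59% ± 0.625 (SD, n = 4 each; exact two-sided permutation test, p = 0.0286, the smallest possible, and 0.0572 adjusted over the 2 library shares tested). mt-Atp6, a subunit of the proton channel of ATP synthase (chrM:7927-8607), had 6936, 1232, 1512 and 1322 CPM against 8887, 9843, 16645 and 17307. 5wk_Mfn2AA_10287-8 stood far above the other Mfn2AA hearts and still below every ntg heart (4.79-fold lower, -2.26 ± 0.60, adjusted p = 0.00737; -3.28 without that heart). mt-Co1, the catalytic subunit of cytochrome c oxidase (chrM:5328-6872), was more even, with 5564, 5169, 7764 and 5248 CPM against 18996, 22419, 17880.0 and 13931. It was 3.08-fold lower (-1.62 ± 0.19, adjusted p = 1.29e-05). mt-Nd2, mt-Cytb and mt-Nd4 were lower by -2.07 ± 0.46, -1.93 ± 0.46 and -1.83 ± 0.43 on the log2 scale. These libraries were selected for polyadenylated RNA, so mitochondrial transcripts are read through their short tails.

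Nuclear genes of the chain fell with them. Of 36 tested complex I subunits 32 fell, of 27 in complexes II to IV 21 fell, of 17 of ATP synthase 16 fell, and none of these genes was called higher (medians -1.14, -1.03 and -1.10). Ndufs6, a complex I subunit, had 468, 352, 434 and 318 CPM against 1021, 1408, 972 and 1561. It was 3.15-fold lower with no overlap (adjusted p = 3.77e-05). Cox7a1, the heart and muscle isoform of a cytochrome c oxidase subunit, had 209.6, 219.6, 328 and 149.6 CPM against 854, 1021, 591 and 801. Its fall was 3.60-fold (-1.85 ± 0.22, adjusted p = 1.29e-05). Cox6a2 and Cox8b, further isoforms of striated muscle, fell 2.82-fold and 2.91-fold, Ndufa12 fell 3.02-fold, and Atp5g3, which encodes the c ring of ATP synthase, fell 2.50-fold. Cycs, cytochrome c, was one of the exceptions, with 106 to 309 against 168 to 509.6 CPM (adjusted p = 0.0966). It was called lower when 5wk_ntg_15935-10, the shallowest of the 8, was left out (-1.06, adjusted p = 0.0312), and without 5wk_Mfn2AA_10289-8 (-1.11, adjusted p = 0.0381). In a bulk heart sample, fewer cardiomyocytes and less of these transcripts in each cardiomyocyte cannot be told apart.

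Fuel pathways leading into the chain were lower as well. Of 35 tested genes of fatty acid uptake and oxidation, 34 fell (median -1.40), and the exception was Cpt1a, named after its value was seen, an isoform of the carnitine transferase that prevails in liver. Acaa2, the thiolase of the last step of beta-oxidation, had 127, 105, 80.2 and 85.5 CPM against 456, 499, 539 and 411. The groups were wide apart, a 4.79-fold difference (-2.26 ± 0.16, adjusted p = 1.83e-07). Eci1, an isomerase for unsaturated fatty acids, had 49.9, 62.7, 63.2 and 48.7 CPM against 224, 258, 265 and 187. Its level was 4.16-fold lower (adjusted p = 5.72e-07). Ucp3, an inner membrane carrier induced with fatty acid use, fell 7.66-fold from 52.2 to 63.8 CPM to 3.04 to 13.4, and Dgat2, which makes triglyceride, fell 4.44-fold. In the tricarboxylic acid cycle and pyruvate entry 21 of 25 tested genes fell and none rose (median -0.99). Mpc2, a subunit of the mitochondrial pyruvate carrier, had 78.2, 83.7, 92.7 and 70.0 CPM against 206, 249, 289 and 222. The groups stood well apart (2.97-fold, adjusted p = 6.48e-07). Pdhb, a subunit of pyruvate dehydrogenase, fell 2.42-fold. Mdh1, the cytosolic malate dehydrogenase, and Pdk4, the kinase that inhibits pyruvate dehydrogenase, were not called (adjusted p = 0.083 and 0.192). Mdh1 was called lower with DESeq2 (adjusted p = 0.0458) and without 5wk_ntg_15935-10 (-1.13, adjusted p = 0.0283), and Pdk4 without 5wk_Mfn2AA_10287-8 (-1.10, adjusted p = 0.0495). Genes for ketone bodies and branched-chain amino acids gave 19 lower of 22 tested and none higher (median -1.03; 9 lower with log2(FPKM + 1) and 11 with total count scaling), among them Bckdhb, a subunit of the branched-chain keto acid dehydrogenase (3.17-fold), and Mccc2 of leucine breakdown (2.95-fold).

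Glycolysis was split. Of 24 tested genes 9 rose, 7 fell and 8 were not called (median 0.11). Slc16a3, the lactate exporter MCT4, had 76.8, 26.8, 15.2 and 37.9 CPM against 3.58, 4.53, 3.40 and 7.39. All Mfn2AA hearts were above all ntg hearts, an 8.49-fold rise (3.09 ± 0.45, adjusted p = 7.85e-05). Pfkp, the platelet type of phosphofructokinase, rose 2.76-fold from 60.5 to 77.6 CPM to 150.3 to 241; it shares exonic sequence with Pitrm1. Genes that fell included Fbp2, the muscle fructose bisphosphatase, from 17.3 to 23.2 CPM to 1.28 to 3.01 (10.4-fold, adjusted p = 1.83e-07). Pfkfb1, a bifunctional regulator of phosphofructokinase, fell 7.82-fold, and Ldhb, the lactate dehydrogenase subunit that prevails in heart, fell 2.39-fold. Of 19 tested genes that move high-energy phosphate 9 fell and 4 rose. Ckm, the muscle creatine kinase, had 1224, 1107, 1081 and 666 CPM against 2699, 3094, 3035 and 3532, a 3.03-fold fall. Its mitochondrial counterpart Ckmt2 fell 2.67-fold, and Slc25a4, the ADP/ATP carrier of heart and muscle, fell 2.28-fold. The risers were Ckb, Gatm, Prkab2 and Prkag2, of which Ckb, Prkab2 and Prkag2 were looked up after the count was seen.

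Transcription factors and organelle upkeep followed the enzymes in direction. Of 27 tested regulators of mitochondrial gene programs 17 fell and 1, Hif1a (the oxygen-regulated factor, named after its value was seen), rose. Ppara, the nuclear receptor that drives fatty acid oxidation genes, had 31.7, 43.0, 45.6 and 37.0 CPM against 82.6, 90.9, 91.3 and 108. It fell 2.36-fold with no overlap (-1.24 ± 0.14, adjusted p = 7.91e-06). Its heterodimer partner Rxrg fell 2.62-fold, and Tfb2m, a factor for transcription of mitochondrial DNA, fell 2.04-fold. In the mitochondrial ribosome and its translation factors 37 of 50 tested genes fell and none rose (median -0.80; 20 fell with log2(FPKM + 1) and 17 with total count scaling), with Tufm, the mitochondrial elongation factor, 2.28-fold lower and Mrpl42 2.55-fold lower. In protein import and chaperones 25 of 35 fell and none rose (median -0.66; 10 fell and 1 rose with log2(FPKM + 1), and 7 fell with total count scaling), with the chaperonin Hspd1 2.20-fold and the import channel Timm23 2.02-fold lower; Timm23 was not called under total count scaling (adjusted p = 0.0534).

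**Figure D2:**
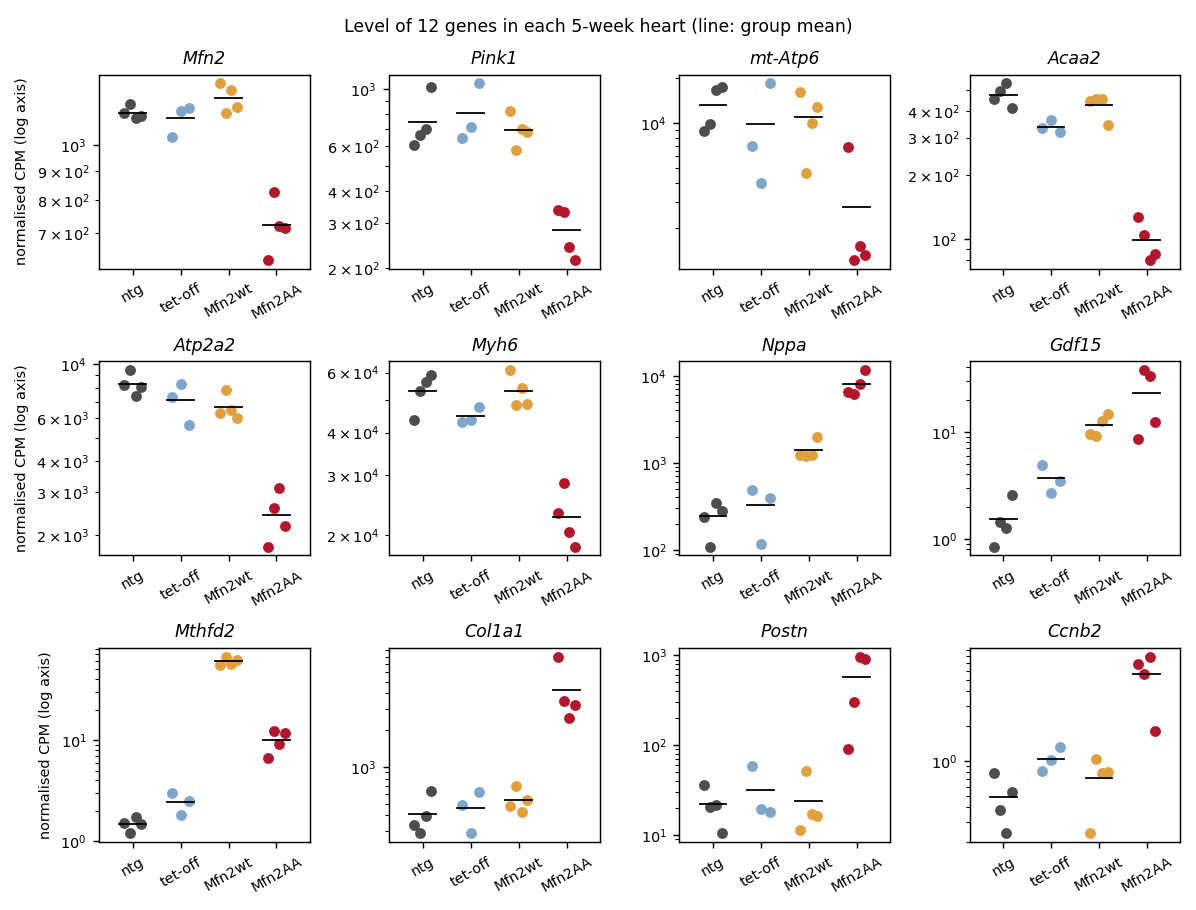
Normalised CPM (log axis) of 12 genes in each 5-week heart, with a point per library and a line at the group mean, for ntg (n = 4), tet-off (n = 3), Mfn2wt (n = 4) and Mfn2AA (n = 4). The Mfn2AA points lie below all others for Pink1, Acaa2, Atp2a2 and Myh6 and above all others for Nppa, Col1a1, Postn and Ccnb2, whereas Mthfd2 was highest in Mfn2wt hearts. The mouse Mfn2 difference was not called under total count scaling. That of Myh6 turned, without a call, in the FPKM values, which list Myh6 at 0 in 5wk_Mfn2AA_10289-7, 5wk_ntg_15927-6 and 5wk_ntg_15928-7.

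The integrated stress response held 18 of the 53 genes called in Mfn2wt hearts, and also differed between Mfn2AA and ntg hearts. When translation initiation is throttled, for instance by mitochondrial distress, the factor ATF4 is made and switches on genes for amino acid synthesis, one-carbon metabolism and secreted signals, together with CHOP. Many of its targets carry a composite element near their start, searched here as TGATGNAA on both strands of RefSeq promoters (GRCm38.p6, 250 bases before to 50 after each start). It was present in 11 of the 31 tested integrated stress response genes with a promoter sequence (35.5%) and in 308 of 10780 tested genes with one (2.86%). Of those 11, 7 were higher and 1, Vldlr, lower in Mfn2AA hearts. The 250 bases before the start of 3 of these genes are printed because their levels differ between the genotypes in different ways, with the match in capitals; a match is a description of letters, not a binding site.
Asns, chr6:7693210-7693459, minus strand: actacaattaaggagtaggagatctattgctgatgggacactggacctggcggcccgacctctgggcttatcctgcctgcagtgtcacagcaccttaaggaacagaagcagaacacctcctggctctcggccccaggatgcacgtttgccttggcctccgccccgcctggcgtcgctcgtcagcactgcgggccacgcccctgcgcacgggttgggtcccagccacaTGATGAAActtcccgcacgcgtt
Nupr1, chr7:126625471-126625720, minus strand: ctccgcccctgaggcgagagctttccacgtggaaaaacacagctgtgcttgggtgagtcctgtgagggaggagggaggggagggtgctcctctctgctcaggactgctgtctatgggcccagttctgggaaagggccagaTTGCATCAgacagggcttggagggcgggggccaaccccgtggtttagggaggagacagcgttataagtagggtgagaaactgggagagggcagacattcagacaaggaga
Chac1, chr2:119350992-119351241, plus strand: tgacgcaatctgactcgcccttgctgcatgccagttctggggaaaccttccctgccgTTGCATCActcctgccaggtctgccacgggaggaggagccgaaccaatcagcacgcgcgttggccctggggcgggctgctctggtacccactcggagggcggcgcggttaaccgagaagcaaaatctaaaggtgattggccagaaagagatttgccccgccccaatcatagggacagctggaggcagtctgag
The match starts 23 bases before the gene start in Asns, 110 before in Nupr1 and 193 before in Chac1. In Asns the letters read along the strand of the gene, and in the other two along the opposite strand.

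Of 36 tested genes of this response 20 rose in Mfn2AA hearts, 1 fell and 15 were not called (median 0.56); in Mfn2wt hearts 18 rose and none fell (median 0.82), against the same ntg libraries. Asns, asparagine synthetase, had 1.84, 2.61, 2.65 and 3.50 CPM in Mfn2AA, 0.728, 0.315, 1.27 and 1.07 in ntg, and 9.11, 15.8, 7.98 and 10.7 in Mfn2wt hearts. The 3 groups did not overlap, with Mfn2AA between the others (1.70 ± 0.37, adjusted p = 0.00179, against 3.76, adjusted p = 8.1e-05, for Mfn2wt). Mthfd2, the mitochondrial folate enzyme, had 6.72, 12.4, 9.21 and 11.7 CPM against 1.52, 1.20, 1.74 and 1.48 in ntg and 54.7 to 66.0 in Mfn2wt. Its log2 fold change from ntg was 2.76 ± 0.22 in Mfn2AA (adjusted p = 5.35e-07) and 5.34 in Mfn2wt hearts (adjusted p = 2.7e-09). Chac1, a glutathione-cleaving target of CHOP, shows the other extreme, with 2.97 to 7.68 CPM in Mfn2AA and 3.94 to 9.00 in ntg, and 26.5 to 40.5 in Mfn2wt. It was not called in Mfn2AA (-0.30 ± 0.29, adjusted p = 0.45) and was 2.49 higher in Mfn2wt hearts (adjusted p = 0.0004). Trib3, a pseudokinase that feeds back on ATF4, was 0.62 ± 0.20 in Mfn2AA (adjusted p = 0.0198) and 2.40 in Mfn2wt; Chac1 and Trib3 were picked after their values were seen. The Trib3 call in Mfn2AA was lost without 5wk_Mfn2AA_10289-7, 5wk_ntg_10287-6 or 5wk_ntg_15927-6 (adjusted p 0.0523 to 0.0679). Atf5, a related factor, was not called in Mfn2AA (0.21, adjusted p = 0.545) and 2.38 in Mfn2wt.

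Other members were higher in Mfn2AA. Nupr1, a stress-induced chromatin protein, had 62.3, 32.8, 25.9 and 52.9 CPM against 9.41, 6.80, 14.4 and 11.7, with 13.8 to 17.6 in Mfn2wt. Its rise was 4.13-fold (2.05 ± 0.31, adjusted p = 0.000106), against 0.62 and no call in Mfn2wt. Gdf15, a hormone released from cells under mitochondrial stress, had 8.65, 37.6, 33.0 and 12.3 CPM against 0.850, 1.45, 1.27 and 2.55. It rose 15.9-fold (3.99 ± 0.48, adjusted p = 1.38e-05), and by 3.00 in Mfn2wt hearts (adjusted p = 0.0089). Psat1, an enzyme of serine synthesis, rose in both (1.85 and 1.43, adjusted p = 9.64e-05 and 0.046). Atf3, an early stress factor, had 4.97 to 11.2 CPM against 2.71 to 6.72 (1.19 ± 0.40, adjusted p = 0.025), and its call was lost without 5wk_Mfn2AA_10289-7 or 5wk_Mfn2AA_10289-9 or 5wk_ntg_10287-6 or 5wk_ntg_15927-6 (adjusted p 0.0554 to 0.0809).

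Genes that mark a loaded or failing heart were the next group. Of 32 tested natriuretic peptide and cardiac stress genes 19 rose, 2 fell and 11 were not called (median 1.44). The list shares genes with others below, such as Postn with the activated fibroblast markers and Lgals3 with the macrophage markers. Nppa, atrial natriuretic peptide (chr4:148000746-148002067), had 6531, 6127, 7956 and 11570.0 CPM against 241, 109, 349 and 283. Even the lowest Mfn2AA heart was far above the highest ntg heart (32.8-fold, 5.04 ± 0.46, adjusted p = 1.5e-06); Mfn2wt hearts, at 1184 to 1954 CPM, were also higher than ntg (2.52, adjusted p = 0.01). Ctgf, a matricellular protein induced by stretch, rose 7.16-fold, from 112 to 250.4 CPM to 776 to 1661. Timp1, an inhibitor of matrix proteases, rose 12.7-fold, with 13.3 CPM in 5wk_ntg_15935-10 and 1.76 to 2.14 in the other ntg hearts (3.67, and 4.83 without 5wk_ntg_15935-10). Nr4a1, an immediate early nuclear receptor, rose 3.36-fold. Myh7, the fetal myosin heavy chain, did not follow Nppa, with 5648, 7209, 3329 and 8085 CPM against 4189, 4556, 5367 and 6448 (0.24 ± 0.24, adjusted p = 0.456). Acta1, skeletal actin, had 1184 to 3994 against 884 to 2355 CPM (0.82 ± 0.38, adjusted p = 0.0947). It was called higher without 5wk_ntg_10287-6 (1.27) or 5wk_Mfn2AA_10289-9 (1.04), and under log2(FPKM + 1) and total count scaling. The fetal noncoding RNA H19 rose 8.74-fold, but 1250.4 of its CPM stood in 5wk_Mfn2AA_10287-8 against 52.2 to 99.7 in the other 3; without that heart the log2 fold change was 0.94 (adjusted p = 0.0614).

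Adult contractile genes went the other way. Of 30 tested sarcomere and Z disc genes 19 fell, 3 rose and 8 were not called (median -0.57). Myh6, the adult alpha myosin heavy chain (chr14:54941921-54966607), had 23200.0, 28416, 20439 and 18511 CPM against 43472, 52937, 56104 and 58838. Mfn2AA hearts held 2.33-fold less, without overlap (-1.22 ± 0.18, adjusted p = 6.41e-05). In the FPKM values this direction was reversed without a call (2.59 on log2(FPKM + 1), adjusted p = 0.63). There Myh6 is listed at 0 in 5wk_Mfn2AA_10289-7, 5wk_ntg_15927-6 and 5wk_ntg_15928-7. The other Mfn2AA hearts, at 4605 to 5467 FPKM, were below the other ntg hearts, at 8905 and 11106. Tnni3, cardiac troponin I, had 2428, 2876, 2121 and 1793 CPM against 5943, 6789.5, 6537 and 8106, a 2.97-fold fall (adjusted p = 2.71e-06). Myh6 and Myh7 are close paralogs side by side in the genome, and how reads that fit both were assigned was not tested. Myl2, the ventricular regulatory light chain, fell 2.39-fold and Tcap, which anchors titin at the Z disc, 2.91-fold. Tpm1, tropomyosin, fell 1.48-fold, and was not called with log2(FPKM + 1) or total count scaling (adjusted p = 0.214 and 0.293). Ttn, titin, was not called (2693 to 5798 against 4278 to 9053 CPM, adjusted p = 0.125), and was called lower without 5wk_ntg_15935-10 (-0.75, adjusted p = 0.0433). The risers were Des, Myom3 and Synpo2l, the last pair looked up after the count was seen.

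Calcium handling and the membrane followed. Of 27 tested calcium genes 12 fell and 5 rose (median -0.40). Atp2a2, the SERCA2 pump that returns calcium to the sarcoplasmic reticulum (chr5:122453513-122502225), had 1791, 2575, 3106 and 2169 CPM against 8211, 9438, 7409 and 8081. It was 3.44-fold lower, with the highest Mfn2AA heart well below the lowest ntg heart (-1.78 ± 0.18, adjusted p = 3.93e-06). Pln, its inhibitor phospholamban, fell 3.00-fold, and Hrc, a calcium-binding protein of the same store, 4.12-fold. Of 33 tested ion channel and gap junction genes 21 fell and 2 rose (median -1.05). Kcnv2, a modifier of potassium channels, had 1.20, 1.42, 1.18 and 1.23 CPM against 9.41, 15.8, 12.5 and 22.0. The Mfn2AA values were even and 11.7-fold lower (-3.55 ± 0.24, adjusted p = 1.83e-07). Clcn1, the muscle chloride channel, fell 20.7-fold from 5.30 to 6.61 CPM to 0.131 to 0.472, Scn4b, a sodium channel subunit, 6.53-fold, and Hcn4, the pacemaker channel, 5.70-fold. Of 31 tested receptors 10 fell and 3 rose, but 5 fell and 7 rose with log2(FPKM + 1). Adra1a, the alpha-1A adrenergic receptor, had 4.97, 4.25, 4.48 and 4.29 CPM against 35.3, 34.0, 28.8 and 26.3, a 6.93-fold fall (adjusted p = 1.83e-07). Adra1b fell 3.41-fold and Agtr1a, the angiotensin receptor, 3.55-fold, while Ace, which makes angiotensin II, rose 2.84-fold.

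The extracellular matrix gave one of the widest shifts among the lists. Collagens and their crosslinkers are made in the heart mainly by fibroblasts, and periostin and Cilp mark fibroblasts that have become active after injury. Of 49 tested matrix and fibrosis genes 46 rose, none fell and 3 were not called (median 2.67), and their summed level was 31449 to 42793 CPM against 6735 to 9674. Col1a1, the chain of type I collagen (chr11:94936270-94951856), had 7936, 3487, 2528 and 3203 CPM against 333, 284, 396 and 634. It rose 10.4-fold without overlap (3.38 ± 0.38, adjusted p = 8.24e-06). Col3a1, of type III collagen, was more even, with 3833, 5200.0, 4126 and 4041 CPM against 577, 504, 658 and 995 (6.29-fold, adjusted p = 1.02e-06). Postn, periostin (chr3:54361107-54391041), had 91.5, 305, 958 and 920.2 CPM against 36.3, 20.4, 21.6 and 10.5. The Mfn2AA hearts differed widely among themselves and all lay above ntg (4.66 ± 0.74, adjusted p = 0.000141). Cilp, a cartilage matrix protein, had 78.1, 277, 277 and 288 CPM against 7.28, 4.59, 8.47 and 9.13, a 31.6-fold rise in which 5wk_Mfn2AA_10287-8 was again low. Lox, the crosslinking enzyme, was highest in that same heart, at 254 CPM against 59.8 to 133 in the other 3 (18.2-fold, adjusted p = 3.7e-05). Rises of 23.6-fold to 31.2-fold were found for Ltbp2, which binds latent TGF-beta, the minor collagens Col11a1 and Col8a2, the fibroblast protein Cthrc1, the collagen prolyl hydroxylase P4ha3 and the basement membrane protein Frem1. Without 5wk_ntg_15928-7 the log2 fold change of Col11a1 went from 4.87 to 5.62, and without 5wk_Mfn2AA_10287-8 that of P4ha3 from 4.96 to 4.22. Dcn, decorin, made by resting fibroblasts, was not called, with 122, 253, 554 and 486 CPM against 297, 319, 262 and 64.5 (0.58 ± 0.55, adjusted p = 0.433).

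Markers of cell types were counted beside these results. Of 14 tested fibroblast markers 10 rose and 1 fell (median 1.02; summed 11521 to 17865 against 3673 to 5161 CPM), and of 13 markers of activated fibroblasts 10 rose, none fell and 3, Acta2, Cilp2 and Fap, were not called (median 2.81; 1127 to 2401 against 429 to 646 CPM); several of these genes are also in the matrix list. Of 16 ventricular cardiomyocyte markers 9 fell and 1 rose (5 and 1 with log2(FPKM + 1); median -0.60; 56939 to 74802 against 106840 to 124530 CPM), so the labelled tissue was present by its markers in every library. Of 16 endothelial markers 2 rose, 2 fell and 12 were not called (median 0.07; 1962 to 2775 against 1979 to 2526 CPM), and this balance was not stable: 6 rose and 1 fell with log2(FPKM + 1), and none rose and 2 fell without 5wk_Mfn2AA_10289-9, 5wk_ntg_15927-6 or 5wk_ntg_15928-7. Among them was Cdh5, the junction protein of endothelium, at 231 to 405 against 272 to 369 CPM (0.16 ± 0.16, adjusted p = 0.454). Vwf, von Willebrand factor, was called higher, but with 665 CPM in 5wk_Mfn2AA_10287-8 and 114 to 255 in the others, and lost its call without that heart (0.46, adjusted p = 0.294); it also lost it without 5wk_Mfn2AA_10289-9 or 5wk_ntg_10287-6, 5wk_ntg_15927-6 or 5wk_ntg_15928-7. How far numbers of cells moved the gene lists was not tested.

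Growth factors that act on these cells rose more often than they fell. Of 38 tested TGF-beta and growth factor genes 20 rose, 5 fell and 13 were not called (median 0.89). Tgfb2 had 42.6, 58.9, 63.7 and 99.1 CPM against 16.6, 15.1, 15.9 and 15.4, a 4.19-fold rise without overlap (adjusted p = 5.41e-06). Fstl1, a secreted glycoprotein, had 625, 819, 833 and 887 CPM against 147, 101, 113 and 108 (6.75-fold, adjusted p = 1.83e-07). Nrg1, a neuregulin, rose 8.01-fold, with 21.4 CPM in 5wk_Mfn2AA_10287-8 and 3.01 to 3.75 in the other 3 (3.00, and 1.81 without that heart). Angpt2, which destabilises vessels, rose 3.28-fold, and the same heart was highest, at 26.8 CPM against 6.63 to 9.22 (1.71, and 1.03 without it).

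Genes of cell division, largely silent in the adult heart, were higher at low levels. Of 46 cell cycle genes in the count table, 44 passed the filter on low counts, which a gene can pass through the group where it is high. Of these 44 tested genes 36 rose and none fell (median 1.45). Late cell cycle genes are repressed in resting cells through a short promoter element called CHR, whose core TTTGAA, searched on both strands of the same promoters, was in 16 of 36 cell cycle genes with a sequence (44.4%) and in 1547 of 10780 tested genes (14.4%). Of those 16 genes, 15 were higher. Printed for the mitotic pair Cdk1 and Ccnb2 are the 250 bases before the start, with the core in capitals.
Cdk1, chr10:69352913-69353162, minus strand: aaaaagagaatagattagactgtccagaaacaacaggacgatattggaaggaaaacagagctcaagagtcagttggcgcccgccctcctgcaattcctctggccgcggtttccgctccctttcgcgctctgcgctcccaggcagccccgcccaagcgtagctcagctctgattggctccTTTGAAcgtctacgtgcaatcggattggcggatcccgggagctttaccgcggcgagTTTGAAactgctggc
Ccnb2, chr9:70421555-70421804, minus strand: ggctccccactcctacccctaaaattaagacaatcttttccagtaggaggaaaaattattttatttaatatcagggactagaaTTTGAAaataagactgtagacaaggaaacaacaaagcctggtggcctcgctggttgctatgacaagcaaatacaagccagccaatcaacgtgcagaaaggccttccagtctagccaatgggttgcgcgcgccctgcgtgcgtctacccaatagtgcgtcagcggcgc
The core starts 71 and 15 bases before the start of Cdk1 and 167 before that of Ccnb2.

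Cdk1, the mitotic kinase (chr10:69336635-69352912), had 7.41, 5.62, 9.31 and 2.66 CPM in Mfn2AA and 0.910, 0.692, 0.475 and 0.403 in ntg hearts. It rose 9.56-fold, and 5wk_Mfn2AA_10289-9 was the lowest of its group (3.26 ± 0.49, adjusted p = 9.66e-05). Ccnb2, cyclin B2, had 6.90, 5.66, 7.84 and 1.82 CPM against 0.789, 0.378, 0.237 and 0.537. The same heart was low, and the rise was 11.2-fold (3.49 ± 0.46, adjusted p = 3.31e-05). Aurkb, the kinase of chromosome passengers, and Cenpe, a kinetochore motor, rose 11.6-fold and 9.91-fold; without 5wk_ntg_10287-6 the log2 fold change of Aurkb was 4.18 rather than 3.54. Which cells held these transcripts, and whether any divided, cannot be read from whole tissue.

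Inflammatory genes were also higher. Of 21 tested macrophage markers 17 rose and 1, Timd4, fell (median 1.69; summed 829 to 2459 against 407 to 490 CPM). Timd4, looked up after the count was seen, marks resident macrophages. Trem2, a lipid-sensing receptor, had 55.2, 14.4, 9.44 and 20.0 CPM against 2.79, 2.96, 3.17 and 3.63. It rose 7.94-fold without overlap, and 5wk_Mfn2AA_10287-8 held the most (2.99 ± 0.46, adjusted p = 0.000109; 2.23 without it). Lgals3, galectin-3, had 114, 19.6, 16.8 and 56.9 CPM against 1.27, 1.57, 3.01 and 5.24, a 20.1-fold rise with the same heart at the top (4.33, and 3.59 without it). Gpnmb, a glycoprotein of lipid-laden macrophages, rose by 3.46 on the log2 scale and Mpeg1, a macrophage pore protein, 5.12-fold. Cd163, a scavenger receptor of resident cells, was not called, at 6.93 to 32.3 against 7.93 to 11.4 CPM (0.82 ± 0.41, adjusted p = 0.122); without 5wk_Mfn2AA_10289-7 or 5wk_Mfn2AA_10289-8 it was called higher (adjusted p = 0.0447 and 0.0263). Lymphocyte and granulocyte markers were low, and 8 of the 19 in the count table passed the filter on low counts, which a gene can pass through the group where it is high, so no count of calls is given. Cd4 stood at 3.76 to 5.26 against 0.971 to 1.61 CPM and Cd3e at 1.34 to 2.32 against 0.317 to 0.692. Of 18 tested complement genes 15 rose and 1 fell (median 1.40), with Clu, the chaperone clusterin, at 1092, 1899, 1711 and 2674 CPM against 419, 337, 415 and 505 (4.40-fold, adjusted p = 6.45e-06). C4b and the receptor C5ar1 rose 5.10-fold and 4.16-fold, the latter 2.06 on the log2 scale and 1.44 without 5wk_Mfn2AA_10287-8. Of 38 cytokine and inflammation genes 32 passed the same filter on low counts, with the same limit. Among these 32 tested genes 15 rose and 2 fell (median 1.04), with the chemokine Cxcl16 4.44-fold higher. Of 35 interferon-stimulated genes 14 rose and none fell (median 0.40). Ifi27l2a, an interferon-induced membrane protein, rose 2.52-fold. Mx1 was low, at 0.598 to 1.58 against 0 to 0.503 CPM, and lost its call without 5wk_ntg_15928-7 (adjusted p = 0.0549).

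Lists for cell death, degradation and redox control were mixed. Of 30 tested apoptosis and necroptosis genes 13 rose and 3 fell (median 0.49). Tnfrsf12a, the TWEAK receptor, had 53.6, 87.0, 77.3 and 76.6 CPM against 26.0, 17.6, 28.7 and 25.4 (3.02-fold, adjusted p = 6.14e-06). The survival factor Bcl2 rose 2.97-fold and the necroptosis kinase Ripk3 2.67-fold. In autophagy and lysosome 11 of 36 rose and 6 fell, shares near those of all tested genes for the falls. Ctss, a lysosomal protease abundant in macrophages, rose 7.14-fold. Of 28 tested antioxidant genes 10 fell and 6 rose, but 6 fell and 7 rose with log2(FPKM + 1). Sod2, the superoxide dismutase of mitochondria, had 205, 226, 276 and 200.1 CPM against 541, 634, 534 and 533. It fell 2.47-fold (-1.31 ± 0.12, adjusted p = 1.49e-06). Gpx3, the extracellular glutathione peroxidase, rose 3.59-fold. Hmox1, heme oxygenase, rested on 1 heart, with 849, 22.6, 19.8 and 43.7 CPM against 10.4, 12.8, 11.4 and 29.3. Without 5wk_Mfn2AA_10287-8 its log2 fold change of 3.90 dropped to 0.87 (adjusted p = 0.186), and it was not called with log2(FPKM + 1) (adjusted p = 0.0557). Ucp2, a mitochondrial carrier of many tissues, had 1157 CPM in that heart against 205 to 367 in the others, and 0.71 without it (adjusted p = 0.133). Its call was lost as well without 5wk_ntg_10287-6, 5wk_ntg_15927-6 or 5wk_ntg_15928-7 (adjusted p 0.0519 to 0.0555).

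Further genes with steep differences follow, some of them also in the lists, such as Wisp2 in the activated fibroblast markers and Ucp1 in the adipocyte markers. Wisp2, a matricellular protein, had 140.0, 71.7, 54.8 and 168 CPM against 5.70, 3.71, 6.49 and 7.12 (19.1-fold). Sprr1a, a cornified envelope protein induced in stressed cardiomyocytes, had 5.29, 7.37, 8.43 and 20.0 CPM, against 0.121 and 0.0629 in 2 ntg hearts and 0 in the other 2 (adjusted p = 9.91e-06), too few reads for a fold. Among the falls, Efnb3, an ephrin, had 15.9, 19.8, 12.9 and 9.46 CPM against 105, 139, 128 and 156. It was 9.08-fold lower with no overlap (adjusted p = 1.83e-07). Ces1d, a carboxylesterase of lipid stores, fell 12.2-fold, Penk, proenkephalin, 12.7-fold, and Lgi1 10.4-fold; Penk went from -3.66 to -4.42 without 5wk_Mfn2AA_10287-8. Mb, myoglobin, among the called genes of highest level, fell 2.01-fold. A few falls were set by single ntg hearts. Scgb1a1, a secretoglobin of airway epithelium, had 106 CPM in 5wk_ntg_15928-7, 14.0 in 5wk_ntg_15927-6, 0.850 and 0.537 in the other ntg hearts and at most 0.163 in Mfn2AA hearts. Scgb3a1 stood at 36.6 and Ucp1, the uncoupling protein of brown fat, at 88.5 CPM in 5wk_ntg_15928-7, against at most 3.33 and 5.73 in the other ntg hearts. Both were called lower in Mfn2AA (adjusted p = 0.00283 and 0.00421) and neither was called with log2(FPKM + 1) (adjusted p = 0.0846 and 0.167). Without 5wk_ntg_15928-7 their log2 fold changes went from -4.56 to -1.89 and from -7.42 to -3.89, and Scgb1a1 no longer passed the filter on low counts.

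The atrial myosin light chains were uneven within both groups. Myl7 had 45.8, 20.2, 5.85 and 177 CPM in Mfn2AA and 18.2, 16.1, 208 and 103 in ntg hearts, and Myl4 58.9, 36.0, 12.6 and 465 against 17.4, 16.7, 166 and 106. Neither was called (adjusted p = 0.746 and 0.503), and the high hearts were 5wk_Mfn2AA_10289-9, 5wk_ntg_15928-7 and 5wk_ntg_15935-10. Of 12 tested atrial markers 2 rose and 3 fell (3 and 2 with log2(FPKM + 1)); Nppa, which atria also make, was high in all 4 Mfn2AA hearts, and its part in these values was not tested. Leaving out 5wk_Mfn2AA_10287-8, 5wk_ntg_15928-7 and 5wk_ntg_15935-10 together, a choice made after their values were seen, left 4407 genes called, 2368 higher and 2039 lower.

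A small set of genes differed from ntg in the same direction in both Mfn2AA and tet-off hearts, which share those ntg libraries. Endod1, an endonuclease-domain gene, had 22.4, 39.7, 54.0 and 32.7 CPM in Mfn2AA, 72.4, 86.0 and 46.4 in tet-off and 9.77, 7.11, 7.44 and 6.85 in ntg hearts. The tet-off and Mfn2AA ranges overlapped, and neither reached the ntg range (log2 fold changes from ntg 3.12 and 2.25); Mfn2wt hearts were near ntg (0.04). Smim3 was 1.63 higher in Mfn2AA and 2.39 in tet-off hearts, Arhgef37 1.51 and 1.28, and Adam19, a metalloprotease, 1.10 and 1.22. Hlf, a clock-controlled transcription factor, was -1.50 and -0.95, and Slc46a3, a lysosomal transporter, -1.09 and -0.83. Clock genes stood out in the tet-off line, where 1 of 20 tested rose and 5 fell, against 3 and 8 in Mfn2AA (3 and 4 with log2(FPKM + 1) and with total count scaling). Arntl (BMAL1), the positive arm of the clock, had 2.94, 4.10, 3.43 and 2.46 CPM in Mfn2AA, 9.39, 8.82 and 9.83 in tet-off and 1.82, 1.07, 1.82 and 2.02 in ntg hearts. It was 0.97 higher in Mfn2AA and 2.49 higher in tet-off hearts (adjusted p = 0.00629 and 0.00029). Dbp, an output factor of the clock, was -0.84 and -1.38; its exons overlap Sphk2, and its Mfn2AA call was lost with log2(FPKM + 1) (adjusted p = 0.0701). The hour at which hearts were taken is not given in the sources used here.

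**Figure D3:**
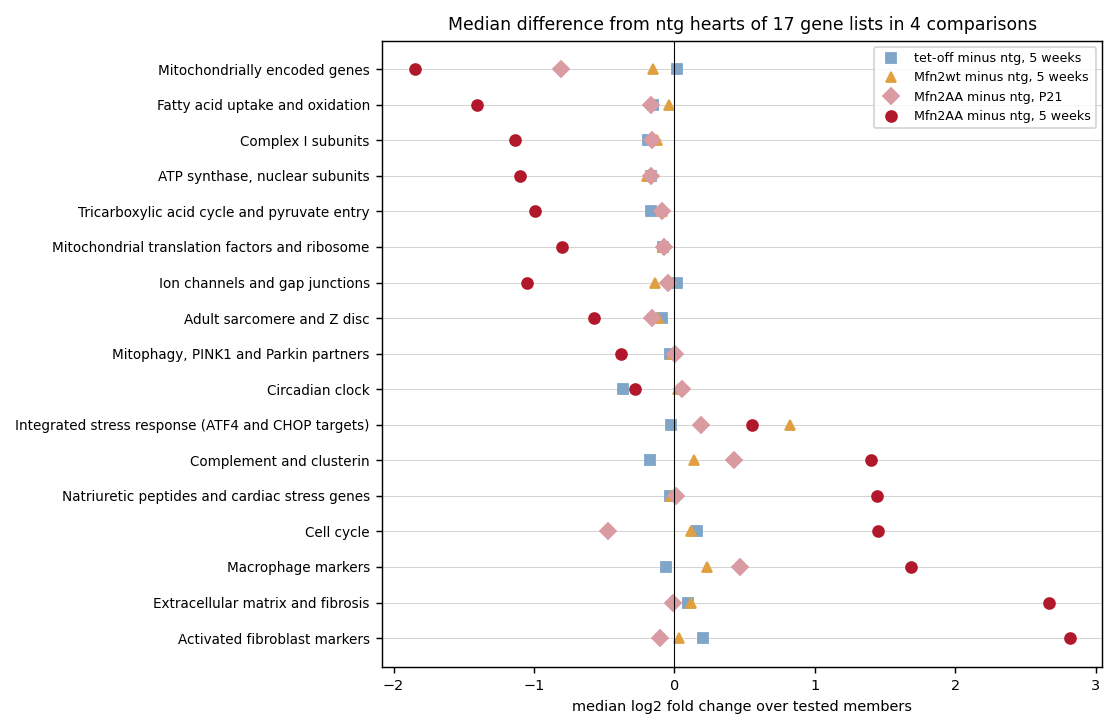
Median log2 fold change from ntg over the tested members of 17 gene lists, for Mfn2AA (circles), tet-off (squares) and Mfn2wt (triangles) hearts at 5 weeks, which share ntg libraries, and for Mfn2AA hearts at P21 (diamonds). At 5 weeks Mfn2AA medians run from -1.85 to 2.81 while those of the other comparisons mostly lie nearer 0. The exceptions are the integrated stress response in Mfn2wt hearts (0.82 against 0.56 in Mfn2AA) and the circadian clock in tet-off hearts (-0.37 against -0.28). The mitophagy median is the one whose call balance turned with the scaling.

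The last question was whether these differences were already there at P21. In the 6 Mfn2AA and 6 ntg hearts of that age, 9 of 13 mitochondrially encoded genes were already lower (median -0.81), as were 3 of 35 fatty acid genes, none of 36 complex I and none of 17 ATP synthase genes (medians -0.17, -0.16 and -0.17). Macrophage markers were higher for 10 of 21 (median 0.47), matrix genes for 4 of 49 with 1 lower (median -0.01), and integrated stress response genes for 4 of 35 (median 0.19). Cell cycle genes went the other way, with 13 lower and 1 higher of 43 (median -0.47). The change of the difference between the ages was called for 5164 of 14173 genes (36.4%) in a joint fit of 38 libraries; age and library batch are the same split here and cannot be told apart. By list, it was more negative at 5 weeks for 33 of 36 complex I, 33 of 35 fatty acid and 14 of 17 ATP synthase genes, and more positive for 43 of 49 matrix, 35 of 44 cell cycle and 10 of 36 integrated stress response genes. Among the 13 mitochondrially encoded genes it was called for only 5, each more negative at 5 weeks (median change over the list -1.13). Acaa2 stood at -0.70 at P21 on the log2 scale (adjusted p = 0.0015) and changed by a further -1.58 ± 0.20 by 5 weeks. Nppa was 1.05 higher at P21 without a call (adjusted p = 0.62) and changed by 3.98 (adjusted p = 0.036). Postn, Cilp, Col11a1, Col8a2 and Frem1 stood at -0.57 to -0.31 at P21 and changed by 5.01 to 5.36. Mthfd2 was 1.42 higher at P21 (adjusted p = 0.0075), with a change of 1.32. Gpnmb was 3.26 higher at P21 and 3.46 at 5 weeks, with no call for the change (0.19, adjusted p = 0.93). Endod1, high in tet-off hearts, was 3.22 at P21 and changed by -0.99.

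**Figure D4:**
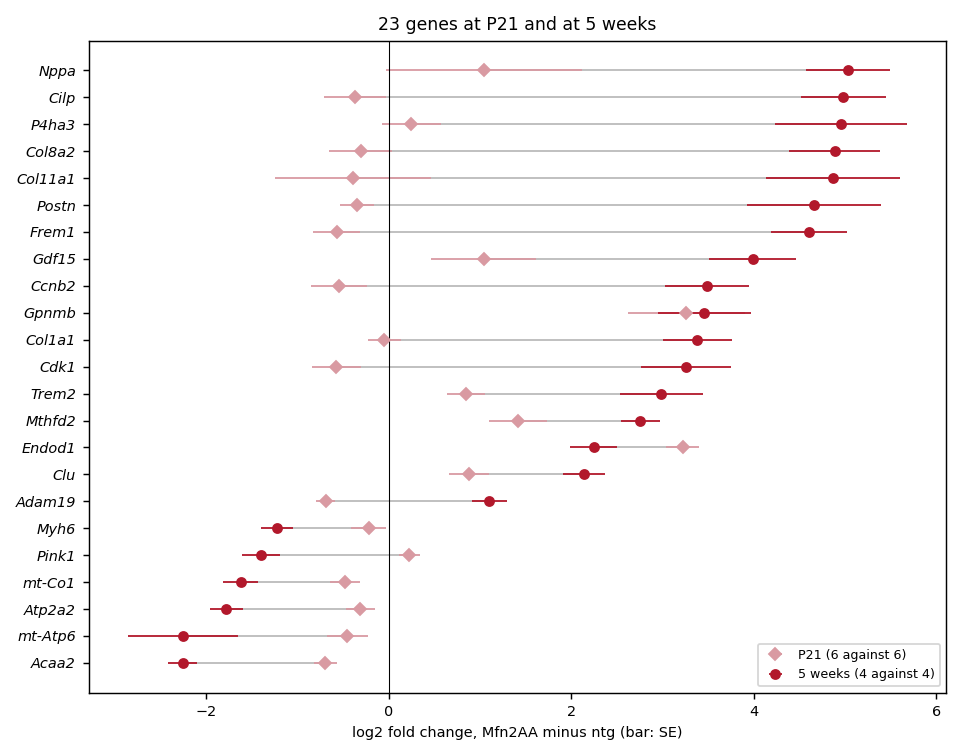
Log2 fold change (Mfn2AA minus ntg) of 23 genes at P21 (diamonds, 6 against 6 hearts) and at 5 weeks (circles, 4 against 4), with bars of 1 standard error and a grey line joining the ages. The change was called for 22 of the 23, the exception being Gpnmb, and the lines of matrix, cell cycle and Nppa values run to the right while those of Pink1, Atp2a2, Myh6, Acaa2, mt-Atp6 and mt-Co1 run to the left.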

How the data were processed

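Polyadenylated RNA of mouse hearts was sequenced as unstranded single-end reads, per the labels' protocols. The submitters' processing notes name mm10, Bowtie2, TopHat2 2.0.10, HTSeq, Cufflinks 2.1, DESeq and edgeR, without roles. The authors deposited HTSeq read counts per gene, not normalised (23428 gene names, 18962 with a read in the 5-week libraries). They also deposited FPKM values per gene and library, scaled by gene length and library total before deposit, in which the human transgene has its own row. Coordinates come from the deposited gene annotation.

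Counts of the 15 hearts of the 4 genotypes at 5 weeks were fitted together (edgeR 4.0.16 in R 4.3.3: TMM scaling, filterByExpr, quasi-likelihood test, 11 residual degrees of freedom), so the groups share 1 estimate of the spread; genes were called at an adjusted p under 0.05. P21 and 5-week counts were fitted jointly (38 libraries) for the change with age. Other settings tried were limma 3.58.1 on log2(FPKM + 1) and log2(FPKM + 0.1) for genes with a group mean of at least 1 FPKM, DESeq2 1.42.0, scaling by RLE, dropping the filter, the 2 groups alone, the title number as a block, a test for at least 1.5-fold, leaving out each library, and, added after seeing the data, total count scaling and leaving out 3 libraries together. TMM factors were 1.101 to 1.29 in Mfn2AA and 0.9256 to 1.048 in ntg libraries. Scripts were tested on simulated data.

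The comparison and the 52 gene lists (37 pathway, 13 cell type marker, 2 technical) were chosen with earlier results of these data known. Named genes follow 1 rule, of which the text gives a part: the transgene, Mfn2, Pink1 and Park2; in each list, at most 5 called members (1 CPM or more, ranked by size of change) and 2 not called (ranked by level); the greatest changes overall; the called genes of highest level; genes shared with the tet-off line; and the greatest changes from P21. Exceptions are marked, and a few genes under the rule are not reported here. Without strand, reads of overlapping exons cannot be told apart: mt-Atp6 and mt-Atp8, Cox6a2 and Itgad, Tnfrsf12a and Hcfc1r1, Cxcl16 and Zmynd15, Atf5 and Nup62, Mb and Apol6. Promoters are RefSeq's (GRCm38.p6). Figures were drawn with matplotlib 3.10.9.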

Additional observations from a re-analysis of the deposited data

Results flagged for a closer look

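Within the groups of 4, a gene's highest or lowest library was marked where its gap to the next exceeded Dixon's 95% limit; of 294 groups tested 29 were marked, and chance alone marks about 1 in 20. 5wk_Mfn2AA_10287-8 accounts for 11 of them. It was high for mt-Atp6 (6936 CPM), mt-Cytb (4171), mt-Nd4 (3791), H19 (1250.4), P4ha3 (34.5), Nrg1 (21.4), Hmox1 (849), Ucp2 (1157) and Angpt2 (26.8), and low for Atf3 (4.97) and Cilp (78.1). 5wk_Mfn2AA_10289-8 was high for mt-Co1 (7764) and Pdhb (189). 5wk_Mfn2AA_10289-9 was low for Myl2 (2293) and Cdh5 (231) and high for Myl4 (465).

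Among ntg hearts, 5wk_ntg_15935-10, the shallowest, was low for Mfn1 (71.6) and high for Atf5 (197), Timp1 (13.3), Hmox1 (29.3) and Ucp2 (286). 5wk_ntg_15928-7 was high for Scgb1a1 (106), Scgb3a1 (36.6), Ucp1 (88.5) and the human transgene (20.0 FPKM). 5wk_ntg_10287-6 was low for Mccc2 (71.7) and high for Acta1 (2355), and 5wk_ntg_15927-6 was high for Sod2 (634) and low for Tpm1 (9962).

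For 22 genes the difference between Mfn2AA and ntg changed from P21 to 5 weeks by the interaction test (adjusted p under 0.05); age and library batch cannot be told apart. On the log2 scale the change was 3.98 for Nppa, 5.01 for Postn, 5.36 for Cilp, 5.24 for Col11a1, 5.19 for Col8a2, 5.17 for Frem1, 4.70 for P4ha3 and 3.42 for Col1a1. It was 4.01 for Ccnb2, 3.81 for Cdk1, 2.94 for Gdf15, 1.32 for Mthfd2, 2.13 for Trem2, 1.78 for Adam19 and 1.25 for Clu. It was negative for Atp2a2 (-1.48), Myh6 (-1.02), Acaa2 (-1.58), Pink1 (-1.64), mt-Atp6 (-1.82), mt-Co1 (-1.16) and Endod1 (-0.99).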

How the results depend on the processing

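The 5451 calls were 4407 to 5682 under RLE scaling, no filter, DESeq2, the FPKM values, the 2 groups alone, total count scaling and the sets of libraries left out together, and 4682 to 5446 when each library was left out. They were 2311 (1387 higher, 924 lower) for a change of at least 1.5-fold. With the title number as a block they were 1835 (1149 higher, 686 lower). The labels do not say what the number means, and it was not used in the main fit. Across the compared groups 1 pair of libraries shares a number (5wk_Mfn2AA_10287-8 and 5wk_ntg_10287-6). Their deviations correlated at -0.395 across 13660 genes, but 1 pair cannot show whether hearts that share a number are related. No other number is held by both groups. With the number as a block, the difference is thus that between 5wk_Mfn2AA_10287-8 and 5wk_ntg_10287-6 alone. Its estimates are given without calls, since 1 heart against 1 cannot test the difference between the groups. Pink1 was then -0.84, mt-Atp6 -0.36 and Postn 1.33. Under that block Acta1 (-0.56), Dcn (-1.28), Scgb3a1 (0.18), Ucp1 (4.59), Myl7 (1.33) and Chac1 (0.96) changed sign. In the FPKM values, with pseudocounts of 1 and 0.1, Park2 (0.012 and 0.019), Myh7 (-0.24 and -0.24) and Myh6 (2.59 and 3.42) did, the last with listed zeros; Park2 was 0.011 under total count scaling. Signs also changed for Cdh5 (-0.021) and Myl7 (1.98) without the 3 libraries together, Myl4 between -1.09 without 5wk_Mfn2AA_10289-9 and 1.66 without 5wk_ntg_15928-7, and Myl7 between -1.84 and 0.48 without the same libraries. The cause was not tested. DESeq2 called 62 genes for tet-off and 116 for Mfn2wt against ntg. Leaving out each library gave 5 (without 5wk_tetoff_10289-1 or 5wk_tetoff_10289-3) to 25 (without 5wk_ntg_10287-6) calls for tet-off, with every library but 5wk_ntg_15935-10 moving the 16 by over 1.5 times, 30 (without 5wk_ntg_15927-6) to 57 for Mfn2wt, 534 (without P21_ntg_10547-7) to 927 at P21, 3537 to 4799 for Mfn2AA against tet-off, 4436 to 5087 against Mfn2wt and 4733 to 5158 for the change with age. The Rn45s share (5.81% against 5.83%) moved between -0.994 and 0.834 points, changing sign without 5wk_Mfn2AA_10289-7 (0.443) or 5wk_Mfn2AA_10289-8 (0.477) or 5wk_ntg_15927-6 (0.834) or 5wk_ntg_15935-10 (0.013). The mitochondrial share stayed between -5.39 and -4.63 points and the transgene difference between 5.69 and 6.39. Genes near 1 CPM, such as Mx1, rest on few reads in the 8042651-count library.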

Other observations

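RNA of 3 of the 4 ntg hearts was prepared again in the P1 library batch, outside the comparisons. In total-count CPM, 5wk_ntg_15928-7 had 107 in the 5-week batch and 234 in the repeat for Scgb1a1, 36.8 and 44.1 for Scgb3a1, and 89.1 and 102 for Ucp1, so these transcripts were read in both libraries of that RNA. Mfn1 in 5wk_ntg_15935-10 was 66.3 in the 5-week batch and 242 in the repeat, next to 166 and 257 in 5wk_ntg_15927-6 and 166 and 240.0 in 5wk_ntg_15928-7. In 5wk_ntg_15935-10, Timp1 stood at 12.3 and 10.3, Hmox1 at 27.1 and 26.2, and Ucp2 at 264 and 125.

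The element of the estrogen-related receptors, nuclear receptors known to drive energy genes, searched as TNAAGGTCA on both strands, was in the promoter of 3 of 117 nuclear energy genes (2.56%) and of 92 of 10780 tested genes (0.853%), and all 3 were lower in Mfn2AA hearts. So were 32 of 36 complex I, 21 of 27 complex II to IV and 16 of 17 ATP synthase genes. In the other energy lists, 21 of 25 tricarboxylic acid cycle and 34 of 35 fatty acid genes were lower. The calls of the 3 genes thus do not set the element apart.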
